A study of Mus musculus with 4 samples.

Results

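The interferon regulatory factors (IRFs) are a family of transcription factors, and 8 of their genes, Irf1 to Irf5 and Irf7 to Irf9, are described here in T helper 17 (Th17) cells given serum amyloid A1 (SAA1). The genes were taken by symbol, 8 of the 23356 gene rows of the authors' deposited table, by a rule that does not use their values, though the family was chosen with earlier results of these data known. SAA1 is an acute-phase protein of liver and gut epithelium, and Th17 cells are the CD4 T cells that make IL-17 cytokines. RNA came from T cells of C57BL/6 mice aged 6 to 8 weeks, grown for 48 h under Th17 conditions in vitro. In the SAA1 group, 2 libraries came from cultures given recombinant murine SAA1, labelled as 2 ng/ml, and in the vehicle group 2 libraries came from cultures labelled as having no treatment, whose titles read veh, taken here to mean vehicle. The labels give no other allele or agent, do not say whether the libraries of a group came from separate mice, and do not state the purity of the culture, so the p-values may measure technical spread only. Levels are the authors' FPKM, a count of fragments divided by transcript length and by the fragments mapped, which is relative to length and so allows genes to be compared. Each group has a single value made from both of its libraries, the depth is unknown, and no value per library can be shown.

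All IRFs bind DNA through a related domain at their amino end, which contacts repeats of the bases GAAA. IRF3 and IRF7 are switched on by phosphorylation below sensors of nucleic acids and induce type I interferons, and IRF9 joins STAT proteins in the complex that carries the interferon signal to the genome. IRF1 is an activator induced by interferon-gamma, IRF2 competes with it for the same sites, and IRF5 acts below Toll-like receptors. IRF4 and IRF8 are closely related members of blood cells: IRF4 is induced by the T cell receptor and is needed for Th17 cells in mice, while mouse T cells that lack IRF8 make more IL-17 under Th17 conditions.

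Irf8 was the member that differed. Its value was 28.5 FPKM in SAA1 cells, against 8.45 FPKM in vehicle cells, which is 3.37-fold higher, or 1.75 ± 0.22 as a log2 ratio with the SE that the deposited statistic implies. Cuffdiff's adjusted p was 0.0019 in the authors' deposited table, the smallest value that the table holds and one shared by 300 genes. At an adjusted p under 0.05, 1 of the 8 members was called higher and 0 lower in that table, where 6.52% of the 11481 tested genes were called, 3.97% higher and 2.55% lower. All 8 members were tested, and 7 of them reached 1 FPKM in either group.

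The 95% interval of the Irf8 ratio, from that SE under a normal distribution, ran from 1.33 to 2.18 on the log2 scale, a 2.51-fold to 4.54-fold difference. No interval of the other 7 members reached it, the highest of their upper bounds being 0.65, for Irf5. Among the 423 genes called higher with at least 1 FPKM, the Irf8 ratio was the 42nd in size. By its level, Irf8 stood above 67.1% of the 10701 genes expressed at 1 FPKM or more in a group in SAA1 cells, and above 33.1% of them in vehicle cells. In a bulk sample, more cells that express a gene and more of its RNA per cell cannot be told apart.

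**Figure D1:**
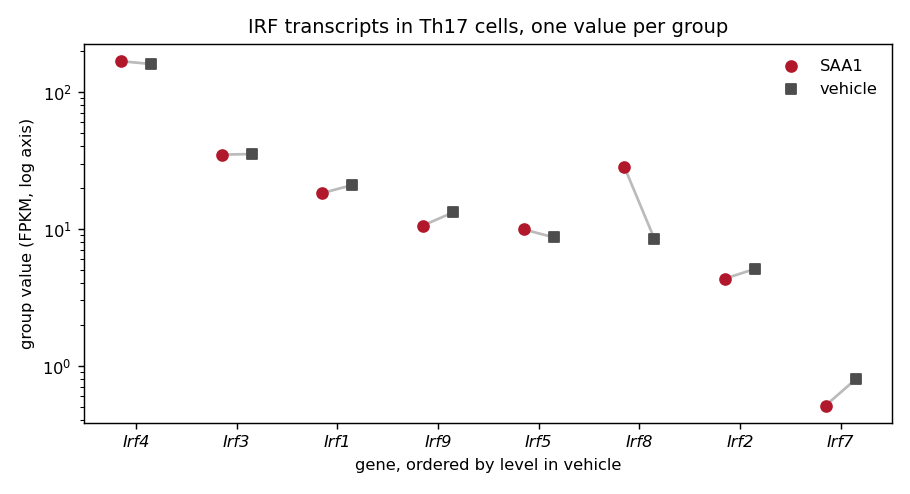
Levels of the 8 IRF genes in FPKM on a log axis, with the SAA1 value (red circle) left of the vehicle value (grey square) for each gene, ordered by the vehicle level. Each symbol is the authors' single value per group, so there are no error bars. Irf8 stands at 28.5 FPKM in SAA1 cells and 8.45 FPKM in vehicle cells, while the pair of symbols of Irf4 and of Irf3 lie at nearly the same height.

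The Irf8 row of the table spans chromosome 8 from 120736376 to 120756692 (mm10), the whole gene with its introns, and overlaps no other gene row. The tested genes within 100 kb of it were not called: Cox4i1, a subunit of cytochrome c oxidase, was at 680 FPKM in SAA1 cells and 592 FPKM in vehicle cells, and Emc8, of a membrane protein insertion complex, at 13.1 and 12.1 FPKM in the same order. Around all 8 members, 42 neighbouring genes within that distance were tested and 1 was called in the authors' deposited table, beside 6.52% of all tested genes. This was Pck2, a mitochondrial gluconeogenic enzyme near Irf9, at 31.3 FPKM in SAA1 cells and 21.9 FPKM in vehicle cells (adjusted p 0.010 in the authors' deposited table).

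RefSeq promoters, which run from 250 bases before to 50 bases after a transcript start on GRCm38.p6, were found for all 8 members in 11 windows, since Irf1, Irf8 and Irf9 have another start. They are shown for Irf8, which was called, and for Irf1 and Irf2, which were not, because these alone held a match to any motif searched. Capitals mark the core of a STAT site, TTCNNNGAA, the type of site through which interferon-gamma acts, and in Irf2 also the core of the interferon-stimulated response element, a GAAA, any 2 bases and another GAAA, to which IRFs bind. Each is written 5′ to 3′ on the plus strand.
Irf8, chr8:120736108-120736407: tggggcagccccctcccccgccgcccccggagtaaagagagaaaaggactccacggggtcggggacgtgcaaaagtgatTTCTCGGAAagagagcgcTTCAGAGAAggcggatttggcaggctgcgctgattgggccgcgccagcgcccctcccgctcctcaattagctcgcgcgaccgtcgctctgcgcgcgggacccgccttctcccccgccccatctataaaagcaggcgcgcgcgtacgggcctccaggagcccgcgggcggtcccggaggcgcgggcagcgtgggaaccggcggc
Irf1, chr11:53769764-53770063: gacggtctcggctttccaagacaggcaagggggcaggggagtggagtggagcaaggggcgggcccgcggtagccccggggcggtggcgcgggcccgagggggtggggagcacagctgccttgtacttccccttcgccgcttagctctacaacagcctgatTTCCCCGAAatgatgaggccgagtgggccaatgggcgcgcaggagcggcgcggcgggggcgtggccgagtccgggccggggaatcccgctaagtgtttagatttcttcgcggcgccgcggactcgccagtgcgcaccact
Irf2, chr8:46739495-46739794: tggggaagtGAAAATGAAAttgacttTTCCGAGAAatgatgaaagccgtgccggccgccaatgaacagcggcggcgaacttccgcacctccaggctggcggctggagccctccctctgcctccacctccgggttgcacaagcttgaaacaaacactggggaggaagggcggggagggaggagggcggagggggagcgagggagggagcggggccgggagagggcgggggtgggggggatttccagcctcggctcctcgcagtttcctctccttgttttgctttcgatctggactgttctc

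The Irf8 window held a pair of STAT sites, TTCTCGGAA starting 171 bases before the transcript start and TTCAGAGAA starting 153 bases before it. At least 1 such site was found in 8.30% of the 32851 RefSeq promoters of the same length, and 2 or more in 0.457%. Irf1 held a STAT site, TTCCCCGAA, starting 90 bases before its start. Irf2 held TTCCGAGAA starting 224 bases before its start, and upstream of that the IRF site GAAAATGAAA, a motif present in 3.44% of promoters. That IRF site overlapped a match to the ETS-IRF composite motif, in which a GGAA takes the place of the first GAAA (2.72% of promoters). The NF-kB consensus matched in Irf1 and Irf2 (8.46% of promoters), and the AP-1 site TGANTCA matched in no window (7.81% of promoters). Both strands were searched, 5 of the 8 members had no match in these windows, and a match of letters does not show binding. A STAT site thus stood before Irf8, which was called, and before Irf1 and Irf2, which were not.

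**Figure D2:**
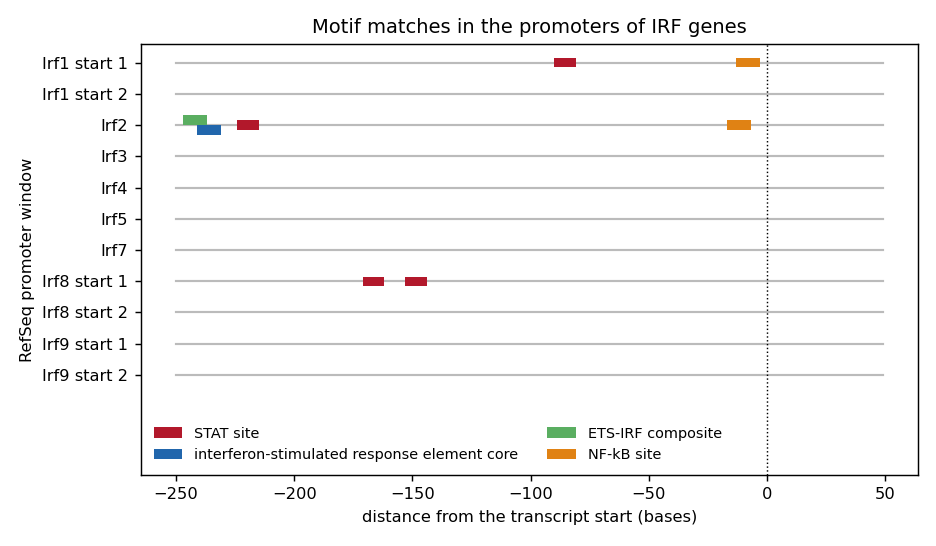
Motif matches (coloured boxes, to scale) in the 11 RefSeq promoter windows of the 8 members, by distance in bases from the transcript start (dotted line); genes with another start have a line for each. Irf8 shows its pair of STAT sites at 171 and 153 bases before the start, Irf1 a STAT site at 90 bases, and Irf2 the overlapping IRF and ETS-IRF matches beside a STAT site at 224 bases.

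Irf4, the member that mouse Th17 cells need, was the most abundant member and did not pass the test. It was at 168 FPKM in SAA1 cells and 160 FPKM in vehicle cells, with a log2 ratio of 0.07 ± 0.20 (adjusted p 0.93 in the authors' deposited table). Its interval ran from a 0.796-fold to a 1.38-fold difference. Irf4 made up 61.1% of the summed FPKM of the 8 members in SAA1 cells and 63.4% in vehicle cells. In both groups it stood above at least 94.8% of expressed genes by level. Its row spans chromosome 13 from 30749258 to 30766927.

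The ratio of Irf4 to Irf8 was lower in SAA1 cells. Irf4 exceeded Irf8 by 5.89-fold in SAA1 cells and by 18.9-fold in vehicle cells. The log2 change of the ratio was -1.69 ± 0.30, with both standard errors combined as if independent. Both genes were measured in the same libraries, and their independence was not tested. Irf8 made up 10.4% of the summed IRF FPKM in SAA1 cells and 3.35% in vehicle cells, and moved to the 3rd place in the family in SAA1 cells, against the 6th place in vehicle cells. The summed level of the 8 members was 275 FPKM in SAA1 cells and 252 FPKM in vehicle cells, and without Irf8 the sums were 246 and 244 FPKM in the same order. Irf5, which in vehicle cells stood next to Irf8 at 8.68 FPKM, was at 9.92 FPKM in SAA1 cells, so Irf8 was 2.87 times Irf5 in SAA1 cells and 0.973 times in vehicle cells.

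**Figure D3:**
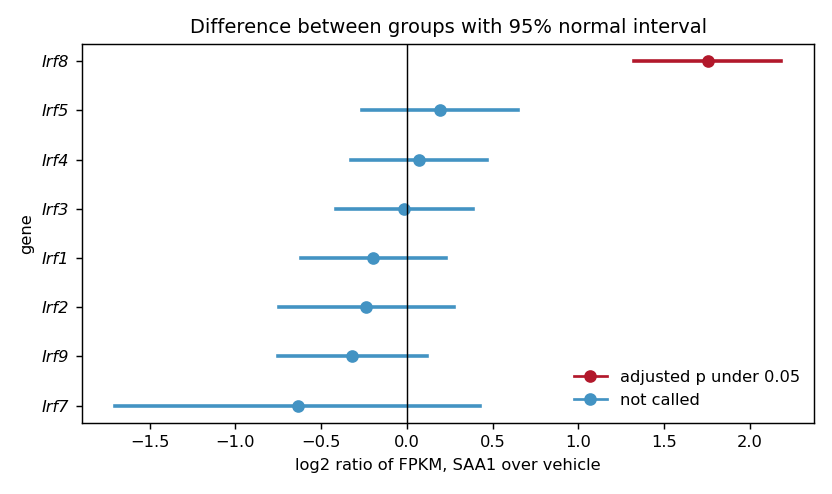
Log2 ratio of FPKM, SAA1 over vehicle, for each of the 8 members (points), with 95% normal intervals from the SE that the authors' statistic implies (lines); red marks an adjusted p under 0.05. The Irf8 interval of 1.33 to 2.18 lies to the right of the others, all of which span 0, and the widest belongs to the weakly expressed Irf7.

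Irf9, Irf7 and Irf3, the members that act in type I interferon signalling, did not pass the test. Irf9, the DNA-binding part of the type I interferon complex, was at 10.6 FPKM in SAA1 cells and 13.2 FPKM in vehicle cells, a log2 ratio of -0.32 ± 0.22. In the authors' deposited table its unadjusted p was 0.037 and its adjusted p 0.26, which put it outside the calls. The two-sided normal p of its deposited statistic was 0.15. Irf9 was, with Irf8, 1 of 2 members with an unadjusted p under 0.05 in the authors' deposited table, against 15.8% of all tested genes. Irf7, which amplifies type I interferon production, was weak, at 0.512 FPKM in SAA1 cells and 0.797 FPKM in vehicle cells. Its log2 ratio of -0.64 ± 0.54 had the widest interval of the family, -1.70 to 0.43, so that a 0.307-fold and a 1.34-fold level both lie at its ends (adjusted p 0.43 in the authors' deposited table). Irf3, the constitutive factor below the nucleic acid sensors, was at 34.9 FPKM in SAA1 cells and 35.2 FPKM in vehicle cells, and its interval ran from a 0.750-fold to a 1.31-fold difference. Its log2 ratio of -0.01 became 0.01 when centred on the median of all genes.

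Irf1 and Irf2, the activator and its competitor, had values close together in the groups. Irf1 was at 18.3 FPKM in SAA1 cells and 20.9 FPKM in vehicle cells (log2 ratio -0.20 ± 0.22), and Irf2 at 4.33 FPKM in SAA1 cells and 5.10 FPKM in vehicle cells (-0.24 ± 0.26). Their adjusted p was 0.61 and 0.62 in the authors' deposited table. Irf1 exceeded Irf2 by 4.22-fold in SAA1 cells and 4.10-fold in vehicle cells. The interval of the log2 change of that ratio ran from -0.62 to 0.70, with both standard errors combined as if independent. Irf5 had a log2 ratio of 0.19 ± 0.23 (adjusted p 0.67 in the authors' deposited table). Of the 7 members not called, 5 had a ratio below 0 and 2 above 0, and their median was -0.20. That set leaves out Irf8 because it was called and keeps Irf7, which is under 1 FPKM. Over the 7 members with at least 1 FPKM, Irf8 included, the median was -0.01, against -0.02 over all genes with at least 1 FPKM.

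By mm10 positions in the table, Irf1 spans chromosome 11 from 53770014 to 53778374, Irf2 chromosome 8 from 46739745 to 46847458 and Irf3 chromosome 7 from 44997648 to 45002848. Irf5 spans chromosome 6 from 29526625 to 29537320, Irf7 chromosome 7 from 141263183 to 141266424 and Irf9 chromosome 14 from 55603985 to 55610030. None of the 8 rows overlaps another gene row. The order of levels within the family in SAA1 cells was Irf4, Irf3, Irf8, Irf1, Irf9, Irf5, Irf2 and Irf7. In vehicle cells it was Irf4, Irf3, Irf1, Irf9, Irf5, Irf8, Irf2 and Irf7. Whether neighbours in these orders differ beyond the spread of libraries was not tested, since no spread of a level is given.

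**Figure D4:**
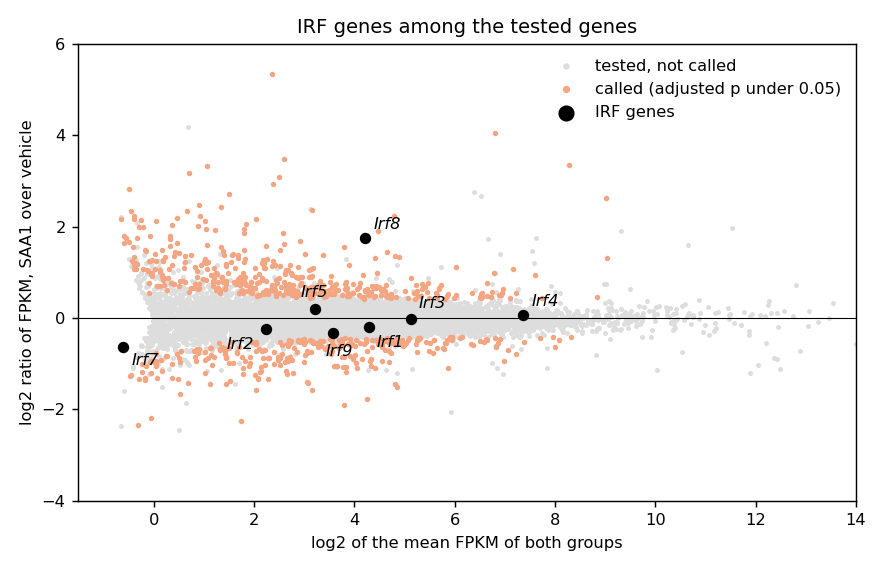
Log2 ratio of FPKM, SAA1 over vehicle, against the log2 of the mean FPKM of both groups, for the 10611 tested genes that reach 1 FPKM and have a value above 0 in both groups; orange points are called. Black points are the 8 IRF genes, of which Irf7 lies under 1 FPKM, and 13 other genes lie outside the axes. Irf8 lies above the cloud at a log2 ratio of 1.75, Irf4 is the rightmost of the family at 0.07, and the other 6 lie within or at the edge of the cloud.

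IRF8 is best known from B cells, dendritic cells and macrophages, so markers of those cells were read beside it. Markers of B cells summed to 2.34 FPKM in SAA1 cells and 3.50 FPKM in vehicle cells, and 1 of the 6, Ebf1, reached 1 FPKM (0.811 FPKM in SAA1 cells and 1.49 FPKM in vehicle cells). The 6 dendritic cell markers summed to 0.827 FPKM in SAA1 cells and 0.738 FPKM in vehicle cells, and none reached 1 FPKM. The 8 macrophage and monocyte markers summed to 0.424 FPKM in SAA1 cells and 0.607 FPKM in vehicle cells, with C1qa and C1qb listed at 0 in both groups. The 4 natural killer cell markers summed to 0.195 FPKM in SAA1 cells and 0.207 FPKM in vehicle cells, with Klrb1c listed at 0 in both. The part of these cells in the Irf8 result was not tested.

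The 6 T cell markers were all present, with a sum of 668 FPKM in SAA1 cells and 728 FPKM in vehicle cells. Thy1, a surface protein of T cells, rose to 96.8 FPKM in SAA1 cells, against 66.0 FPKM in vehicle cells, and Cd3e, a chain of the T cell receptor complex, fell to 28.2 FPKM in SAA1 cells, against 39.1 FPKM in vehicle cells. Both were called in the authors' deposited table. Neither was called when the deposited p of every gene was replaced by the two-sided normal p of its deposited statistic, named the normal p from here on. The part of these shifts in the Irf8 result was not tested.

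IRF4 and IRF8 bind DNA weakly alone and act with partners, chiefly AP-1 dimers that contain a BATF protein, and ETS factors. Of 14 tested genes of the partner list, 1 was called higher and 1 lower in the authors' deposited table, beside 3.97% higher and 2.55% lower among all tested genes, so the counts say nothing particular to the list. Batf3, whose product works with IRF8 in mouse dendritic cells, rose to 5.04 FPKM in SAA1 cells, against 2.06 FPKM in vehicle cells (log2 ratio 1.29 ± 0.43, adjusted p 0.0059 in the authors' deposited table). Nfatc1, a calcium-regulated factor of activated T cells, fell to 17.9 FPKM in SAA1 cells, against 25.1 FPKM in vehicle cells (-0.48 ± 0.21). Batf, the partner of IRF4 in Th17 cells, was at 194 FPKM in SAA1 cells and 208 FPKM in vehicle cells, and Junb at 729 and 688 FPKM in the same order, neither of them called.

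Spi1 and Spib, genes of ETS partners of IRF4 and IRF8 in B and myeloid cells, were scarcely present. Another ETS gene of the partner list, Etv6, was at 23.3 FPKM in SAA1 cells and 26.8 FPKM in vehicle cells and was not called. Spi1, which encodes PU.1 and is named Sfpi1 in the table, was at 0.0554 FPKM in SAA1 cells and 0.0969 FPKM in vehicle cells, and Spib at 0.325 FPKM in SAA1 cells and 0.208 FPKM in vehicle cells, and neither was tested. The median log2 ratio of the 14 partners with at least 1 FPKM was -0.03, against -0.02 over all genes with at least 1 FPKM. With the normal p, no partner was called in either direction, against 2.13% of all tested genes.

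Of 8 tested genes linked to IRF4 in mouse Th17 cells and other lymphocytes, 5 were called higher and 0 lower in the authors' deposited table, beside 3.97% higher and 2.55% lower among all tested genes. With the normal p, 3 were higher, beside 2.13% of all tested genes called in either direction. Il17a and Il17f, the cytokine genes that define the lineage, had log2 ratios of 3.34 ± 0.21 and 2.64 ± 0.20. Il21 rose to 196 FPKM in SAA1 cells, against 92.8 FPKM in vehicle cells. The median of the 7 members with at least 1 FPKM was 0.66. Prdm1, a repressor that IRF4 controls in other lymphocytes, was listed at 0.0303 FPKM in SAA1 cells and 0.0169 FPKM in vehicle cells and was not tested.

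Upstream of the interferon-linked members stand receptors, kinases and sensors. Of 10 tested genes for interferon receptors, JAKs and STATs, 0 were called in either direction by Cuffdiff in the authors' deposited table, beside 6.52% of all tested genes, 0 had an unadjusted p under 0.05, and 0 were called with the normal p. The largest ratios among them were those of Ifngr1, the interferon-gamma receptor chain that binds the ligand, at 19.1 FPKM in SAA1 cells and 15.9 FPKM in vehicle cells, and Il10rb, a chain shared with interferon-lambda, at 11.6 and 13.6 FPKM in the same order. The median of the 10 genes was -0.12.

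Of 20 tested sensors, adaptors and kinases that lead to IRF3, IRF5 and IRF7, 0 were called higher and 2 lower in the authors' deposited table, beside 3.97% higher and 2.55% lower among all tested genes. Ifih1, the RNA sensor MDA5, fell to 10.7 FPKM in SAA1 cells, against 22.7 FPKM in vehicle cells (log2 ratio -1.09 ± 0.20). Ikbke, a kinase that phosphorylates IRF3 and IRF7, fell to 11.2 FPKM in SAA1 cells, against 15.8 FPKM in vehicle cells (-0.50 ± 0.21, adjusted p 0.018 in the authors' deposited table), a call lost with the normal p. Its relative Tbk1 was at 19.3 FPKM in SAA1 cells and 18.9 FPKM in vehicle cells. The median of the 20 genes was -0.12.

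Of 9 tested inhibitors of interferon and IRF signalling, 0 were called higher and 1 lower, beside 3.97% higher and 2.55% lower among all tested genes. Usp18, which dampens the type I receptor, fell to 1.25 FPKM in SAA1 cells, against 2.27 FPKM in vehicle cells (adjusted p 0.041 in the authors' deposited table), a call lost with the normal p. Socs3, an inhibitor of STAT3 signalling, was at 17.9 FPKM in SAA1 cells and 13.3 FPKM in vehicle cells and was not called. The median of the 9 was -0.13.

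Interferon transcripts themselves were scarce. None of the 8 genes for type I interferons and interferon-gamma was tested, and the highest value was 0.288 FPKM, of Ifnb1 in vehicle cells, against 0.0754 FPKM in SAA1 cells. Ifng, the gene for the interferon that induces Irf1 and Irf8, was at 0.101 FPKM in SAA1 cells and 0.165 FPKM in vehicle cells.

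Among genes downstream of the interferon-linked IRFs, calls ran one way, beside a share of 2.55% called lower among all tested genes. Of 23 tested interferon-stimulated genes, the targets of the complex that holds IRF9, 8 were called lower and 0 higher in the authors' deposited table. With the normal p, 5 were lower, beside 2.13% of all tested genes called in either direction. The median over the 21 genes of this list with at least 1 FPKM was -0.36. The called members with the smallest adjusted p and, among those, the largest ratios were Ifit1 (log2 ratio -1.42 ± 0.35), Samd9l (-1.31 ± 0.23), Ifih1 and Oas3 (-1.07 ± 0.24), all of them antiviral effectors or sensors. Xaf1, named after its value was seen, had the largest ratio of the 8 (-2.04 ± 0.73) at a low level, 0.128 FPKM in SAA1 cells and 0.530 FPKM in vehicle cells. Of the 31 genes of this list, 7 also stand in the lists above. Ifih1 and Usp18 are among these 7, so their calls are counted in those lists as well.

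Of 13 tested IRF1-linked genes, 5 were called lower and 0 higher in the authors' deposited table, beside 2.55% called lower among all tested genes. Under the normal p, 4 were lower, beside 2.13% called in either direction. The calls were those of Casp1, Cd274 and genes for guanylate-binding proteins. The antigen processing genes of the list, Tap1, Tap2, Psmb8, Psmb9 and Psmb10, were not called, nor were B2m and Nlrc5. These uncalled genes were named after their values were seen. Casp1, an inflammasome protease, fell to 9.21 FPKM in SAA1 cells, against 19.4 FPKM in vehicle cells, and Cd274, the inhibitory ligand PD-L1, fell by 0.94 ± 0.21 on the log2 scale. Gbp5 and Gbp2, interferon-induced GTPases of host defence, had log2 ratios of -0.88 ± 0.25 and -0.72 ± 0.21. Psmb8, an immunoproteasome subunit, was at 280 FPKM in SAA1 cells and 279 FPKM in vehicle cells. The median of the 13 was -0.29. Irf1 and Irf9 themselves were not called, and whether any of these genes depended on an IRF was not tested.

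**Figure D5:**
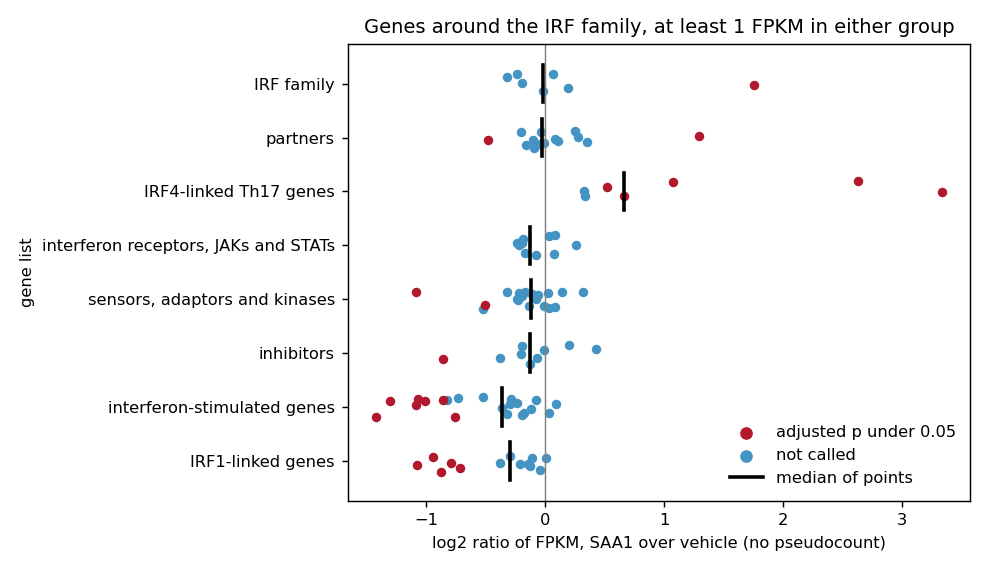
Log2 ratio of FPKM, SAA1 over vehicle, of tested genes that reach 1 FPKM in a group, by gene list; each point is a gene, red points have an adjusted p under 0.05, and black bars are medians of the points. Irf8 and Batf3 stand to the right in the family and partner lists, the IRF4-linked Th17 genes lie to the right of 0, and the red points of the interferon-stimulated and IRF1-linked lists lie to the left.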

How the data were processed

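RNA-seq of cultured mouse Th17 cells was analysed from a single deposited table of gene values in the layout of Cuffdiff, per the file headers. TopHat2, Cuffdiff and the builds mm9 and mm10 are named in the submitters' processing notes, without versions. The sources used here give no settings for scaling, filtering or strand. The authors' FPKM values (fragments per kilobase of transcript, scaled to mapped fragments) are given once per group, from both libraries of that group. The deposited test statistic is a score, the log ratio over its standard error. The deposited p-values are not the normal p of that score. For Irf9, Cuffdiff's deposited p was 0.037 and the normal p 0.15, so a deposited p and an interval given here can disagree. The p-value and q-value were deposited by the authors. The q-value was checked as a Benjamini-Hochberg adjustment of all tested rows, from which it differed by at most 5.23e-07. Values per library were not analysed here, so depth is unknown, the spread between replicates cannot be shown, and limma or a count test, the tests foreseen for such values, were not run.

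The log2 ratio was recomputed as SAA1 over vehicle, its standard error as that ratio over the deposited statistic, and a 95% interval under a normal distribution. A gene was called at an adjusted p under 0.05. List medians used FPKM plus 0.1 over members that reached 1 FPKM in a group, so changes of weak genes are understated. Of 21458 rows matched by symbol to the GRCm38 gene table, 99.0% overlapped its position, so positions are on mm10, the same assembly, counted from 1. Calculations used Python 3.11.15, pandas 2.3.3, NumPy 2.4.6 and SciPy 1.17.1, and were tested on simulated data. The simulated ratios were drawn from a normal distribution with the implied SE, so they do not test the deposited p-values or the calls. Alternatives covered the threshold, a 1.5-fold minimum, the set of genes adjusted over, a normal p (two-sided) from the deposited statistic, the pseudocount, the expression minimum, centring and shared loci.

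The members and lists were chosen with earlier results of these data known. The rule named all 8 members, up to 4 called genes of each other list by adjusted p and then by fold, and otherwise its largest folds, to 2 genes in all. Genes at 0, genes near a member and listed levels given beside a result were named after their values were seen. Other genes of the family, and a few that this rule picked, are not reported here. Promoter sequences are those of RefSeq on GRCm38.p6, and proteins were not compared.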

Additional observations from a re-analysis of the deposited data

How the results depend on the processing

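Irf8 was called higher and was the only 1 of the 8 members called under each of the 6 alternatives for calling. Its adjusted p was 0.0019 by Cuffdiff, its difference 3.37-fold and its locus unshared. The other thresholds, the fold minimum and the shared-locus rule therefore could not change its call. The log2 ratio of Irf8 was 1.74 with a pseudocount of 0.1 and 1.64 with a pseudocount of 1. The total called over all tested genes was 436 at an adjusted p under 0.01 and 245 with the normal p, against 749. Irf3, not called, had a log2 ratio of -0.014, which was 0.0068 when centred on the median ratio of -0.02. Calls of Ikbke, Usp18, Nfatc1 and Cd3e were lost at 0.01 and with the normal p, and those of Batf3 and Thy1 with the normal p. With a 1.5-fold minimum, calls of Ikbke, Nfatc1, Thy1 and Cd3e were lost. No paired analysis was possible because the table holds a single value per group, and for the same reason neither the omission of each replicate nor the alternatives for counts were run. Depth is unknown, so no limit from counts can be given.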
